A study of Mus musculus with 103 samples.

Results

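The genes described here are 6 mouse genes known as products of chitinase-like protein families or of alternatively activated macrophages: Chil1, Chil3, Chil4, Retnla, Arg1 and Ear3. They were listed by name and chosen by measured levels already seen in these arrays, those of the lung cells, of the livers treated with DDC and of the bronchopulmonary adenocarcinomas, so the values of these groups are given as descriptions without a test. For the same reason the bronchopulmonary adenocarcinomas were left out of the tests that set tumours against internal carcinomas, which here are HCC/CC and the gastric, prostatic and uterine carcinomas, a choice made after the data were seen. The array carried 8 probe sets annotated to them among 45141 probe sets, and they are 6 of the 17097 genes with a probe set of a single symbol. Of the 8 probe sets, 3 have names ending in _s_at or _x_at, which mark probes that can also bind transcripts of related genes: 1 of the 2 probe sets of Chil4 and both of Ear3.

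Expression was measured on Affymetrix mouse arrays, 1 per sample, and the values are log2 intensities, so that a difference of 1 is a 2-fold change. The 40 samples of sorted cells were Prom1-positive cells taken with magnetic beads from dissociated organs. There were 4 samples each of untreated kidney, lung and uterus, 5 of untreated liver, 3 each of neonatal liver, prostate, salivary gland and small intestine, and 2 of stomach. A further 9 came from liver of animals treated with DDC, a compound that injures the liver. The 56 primary tumours were dissected pieces of tissue. The liver gave 14 tumours labelled hepatocellular carcinoma/cholangiocarcinoma, written HCC/CC, and 2 hepatoblastomas. The stomach gave 4 adenocarcinomas and 7 adenomas, and the intestine 3 small and 5 large intestinal adenomas. The remaining internal tumours were 8 adenocarcinomas of the prostate, 3 uterine carcinomas and 2 bronchopulmonary adenocarcinomas, written lung adenocarcinomas. Squamous cell carcinomas came from skin of the perineal (4), perioral (3) and periorbital (1) region. The last 7 samples were single metastases. The labels used here give no genotype, strain or animal for any group, and no age beyond the word neonatal for 1 liver group. Samples of 1 group may therefore share an animal, and p-values measure only the spread between these samples, which may be technical. RNA was extracted with different kits from sorted cells and from tumours, so sorting, kit and tumour cannot be told apart in any comparison of a tumour with sorted cells.

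Array medians lay between 3.82 and 4.24, and no pair of arrays held identical values. The 3' minus 5' log2 difference of actin, a measure of RNA quality, averaged 1.72 in kidney and 1.45 in untreated liver cells. Other sorted groups had means of 0.80 (neonatal liver cells) to 1.09 (stomach cells), and HCC/CC had 0.87. Untreated liver samples ran from 1.05 to 1.73 and overlapped with other groups, such as DDC liver cells (0.54 to 1.39). The part of RNA quality in comparisons with kidney or untreated liver cells was not tested. Prom1, the protein used for the sort, had group means of 9.33 to 11.99 in 7 of the 10 sorted groups. It was lower in DDC liver cells (7.04) and lung cells (6.36), and in untreated liver cells its mean of 3.45 was under the detection filter. Sorted cells carried macrophage transcripts as well. The mean log2 level of 12 macrophage markers ran from 5.30 in kidney cells and 5.47 in stomach cells to 10.63 in lung cells and 11.29 in uterus cells. Because each sample is a mixture, a lower value may reflect fewer cells of a type or less RNA per cell, and these cannot be told apart.

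Chitinase-like proteins share the fold of chitinases, enzymes that cut the sugar polymer chitin, but have lost the catalytic activity. In mice Chil3 (Ym1) is made by macrophages, above all in the lung, and by neutrophil precursors, Chil4 (Ym2) by epithelium of the stomach and by inflamed airway, and Chil1 (BRP-39) by macrophages, neutrophils and some epithelial and tumour cells. Retnla (Fizz1, RELM-alpha) and Arg1, the arginase of the urea cycle, are induced in macrophages by interleukin-4 and interleukin-13 through the transcription factor STAT6, and Arg1 is in addition a major enzyme of hepatocytes. Ear3 belongs to the eosinophil-associated ribonucleases, of which several are also made by macrophages.

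The promoters of Chil3, Chil4 and Retnla are shown because the first pair come from near-identical neighbours on chromosome 3 that the arrays nevertheless separated, while Retnla holds a STAT6 motif. Each is the 250 bases before the transcription start in RefSeq, build GRCm38.p6, at chr3:106167565-106167814 on the minus strand for Chil3, chr3:106219480-106219729 on the minus strand for Chil4 and chr16:48842359-48842608 on the plus strand for Retnla. Capitals mark the STAT6 motif (TTC, any 4 bases, then GAA, which reads the same on both strands), the PU.1 core GGAAGT on either strand (ACTTCC when read on the printed strand) and the sense TATA box TATAAA.
Chil3: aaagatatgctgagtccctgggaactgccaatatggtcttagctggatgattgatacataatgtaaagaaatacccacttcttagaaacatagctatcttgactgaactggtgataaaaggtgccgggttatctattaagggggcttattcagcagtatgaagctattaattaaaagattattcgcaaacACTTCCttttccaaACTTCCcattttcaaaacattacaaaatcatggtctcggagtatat
Chil4: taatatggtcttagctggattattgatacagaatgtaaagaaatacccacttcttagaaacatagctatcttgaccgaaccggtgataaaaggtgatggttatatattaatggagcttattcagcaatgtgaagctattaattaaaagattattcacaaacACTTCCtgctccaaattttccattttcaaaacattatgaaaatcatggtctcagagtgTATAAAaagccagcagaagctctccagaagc
Retnla: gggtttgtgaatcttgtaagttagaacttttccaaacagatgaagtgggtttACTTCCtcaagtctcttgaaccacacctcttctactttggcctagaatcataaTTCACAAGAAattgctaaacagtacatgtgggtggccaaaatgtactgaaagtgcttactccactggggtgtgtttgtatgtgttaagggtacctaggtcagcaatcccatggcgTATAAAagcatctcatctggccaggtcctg
Over 221 aligned bases, the Chil3 and Chil4 promoters were identical at 201, or 91.0%. The STAT6 motif was found in Retnla alone of the 4 members with a promoter in the table (Chil1, Chil3, Chil4, Retnla), from base -145 to base -136 counted from the start, and 5.85% of 32851 mouse promoters hold it. The PU.1 core, found in 19.7% of promoters, was present in 2 copies in Chil3 and in 1 copy each in Chil4 and Retnla. A TATA box, present in 7.59% of promoters on the sense strand, stood at -31 to -26 in Chil4 and at -30 to -25 in Retnla. None was found in the Chil3 window. That window ends within the stretch aligned with the Chil4 box, so a box at this place could not be seen. The C/EBP motif TTGCNNAA, searched on both strands and left in lower case here, was found in Chil4 and in Retnla and in 9.56% of promoters. Chil1 held none of these motifs. These matches describe the letters of the windows only.

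Tests used limma across all genes of a comparison. A gene was tested when its mean in at least 1 of the compared groups was above the 40th percentile of all values in the fit, which was 4.06 for sorted cells and 4.11 for tumours. A gene is called higher or lower when its Benjamini-Hochberg adjusted p was under 0.05 and its log2 difference was at least 1. Of 20 tested comparisons, Chil3 was higher in 7 and lower in 2, and Arg1 higher in 8 and lower in 3, both with 20 tested. Retnla was higher in 3 and lower in 8 of 19, Ear3 higher in 6 and lower in 3 of 18, and Chil1 higher in 3 and lower in 1 of 16. Chil4, by its probe set that can cross-hybridise, was higher in 3 and lower in 4 of 20. In the directions in which a member was called, 1.79% to 22% of all tested genes were called, depending on the comparison. The comparisons are not independent, since the 7 comparisons of an organ with the mean of the other organs share samples, and so do those that use stomach cells, untreated liver cells or gastric adenocarcinomas more than once. In what follows, the value after ± is the SD over samples for a level and the standard error for a difference.

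Chil3 (gene 12655, GRCm38.p6 chr3:106147554-106167564) was measured by 1 probe set without a cross-hybridisation mark. Lung cells had the highest level of any sorted group, with 12.20, 12.86, 13.34 and 12.66 in the 4 samples. Both lung adenocarcinomas, at 12.60 and 12.33, lay within the range of the lung cells. The next highest group was gastric adenocarcinoma, with 10.99, 12.44, 11.40 and 11.50. Stomach cells were at 3.41 and 3.51, under the filter, and gastric adenomas ran from 3.53 over a median of 6.92 to 9.21. All 4 gastric adenocarcinomas thus lay above every gastric adenoma and both stomach samples.

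In the tests, Chil3 was 8.12 ± 0.39 higher in gastric adenocarcinoma than in stomach cells (adjusted p = 1.9e-05) and 5.30 ± 1.26 higher than in gastric adenoma (adjusted p = 0.00063). Among the tested genes 17.9% were called higher in the first of these comparisons and 13.7% in the second. Of the 5 members tested against stomach cells, 3 were called higher (Chil3, Arg1 and Ear3) and none lower by the probe set that stands for the gene, while a second probe set of Chil4, described below, was called lower. Against gastric adenoma the same 3 were called higher and Chil1 was called lower. The difference between gastric adenoma and stomach cells, 2.83 ± 1.38, was not called (adjusted p = 0.18). Macrophage markers moved the same way: 11 of 12 were called higher in gastric adenocarcinoma than in stomach cells with a median of 2.52, against a median of 0.18 over all genes. Their mean level was 8.32 in gastric adenocarcinoma (samples 7.88 to 8.73), 6.58 in gastric adenoma and 5.47 in stomach cells (5.40 to 5.54). Of 7 fibroblast markers tested, 7 were also called higher than in stomach cells. The part of these cells in the Chil3 difference was not tested.

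Chil3 also differed between the liver groups. Untreated liver cells were at 3.18, 3.06, 3.0, 3.10 and 3.06, all under the filter. Neonatal liver cells were at 7.85, 5.79 and 7.83, a difference of 4.08 ± 0.76 (adjusted p = 6.4e-05), and 22% of tested genes were called higher in that comparison. Livers treated with DDC ran from 4.60 over a median of 7.31 to 9.74, and HCC/CC from 3.27 over 7.14 to 11.22. Every DDC and neonatal sample lay above every untreated one, and every HCC/CC sample did too, although the lowest HCC/CC value was close to the untreated ones. HCC/CC exceeded untreated liver cells by 4.59 ± 1.18 (adjusted p = 0.0043), where 17.4% of genes were called higher. Neutrophil markers were higher beside Chil3. In neonatal liver cells 6 of 9 tested were called higher with a median of 4.78 (all genes 0.31), and their mean level was 6.68 (5.88 to 7.16) against 4.04 (3.73 to 4.66) in untreated liver cells. HCC/CC had 4 of 9 called higher, and a mean level of 5.42 that ran from 3.92 to 7.08. Of the macrophage markers none was called higher in neonatal liver cells and 1 in HCC/CC. The part of neutrophils in the Chil3 differences was not tested.

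Elsewhere Chil3 was intermediate. Salivary gland cells were at 6.44, 6.01 and 6.09, which is 2.41 ± 0.65 above the mean of the other organs without lung (adjusted p = 0.0037, 11.3% of genes called higher), with neutrophil markers at a mean level of 6.98. Uterus cells, at 6.16, 5.75, 4.89 and 5.28, were 1.64 ± 0.57 higher (adjusted p = 0.020, 16.7% of genes), a call lost without uterus sample 1 (1.43) or 2 (1.56). Prostatic adenocarcinomas ran from 5.35 over 7.36 to 9.09 against 6.55, 3.53 and 3.08 in prostate cells. That difference of 2.97 ± 0.94 (adjusted p = 0.026, 12.4% of genes called higher) was lost without prostate sample 2 (2.54) or 3 (2.32). Squamous carcinomas, taken as the mean of the perineal and perioral groups, were lower than the internal carcinomas, at -2.19 ± 0.90 (adjusted p = 0.036, 13.5% of genes called lower), a call lost without perineal tumour 2 (-2.11) or 3 (-2.08), perioral tumour 2 (-2.18) or 3 (-2.01) or uterine carcinoma 1 (-1.93). Perineal tumours were at 4.90, 3.46, 3.24 and 3.99 and perioral ones at 8.29, 7.48 and 6.81, and although these did not overlap the difference of -3.62 ± 1.53 was not called (adjusted p = 0.23). The lower call of untreated liver cells against the other organs, -1.21 ± 0.53 (adjusted p = 0.0499), did not hold without any of 21 of the 24 samples. Ordered by mean, lung cells stood apart from neonatal liver, DDC liver, salivary gland, uterus, prostate and stomach cells, whose mean ± SD ranges overlapped from one neighbour to the next, and kidney, untreated liver and small intestine cells came last.

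Chil4 (gene 104183, GRCm38.p6 chr3:106201491-106219479) gave different pictures by its 2 probe sets. With the probe set that carries no mark of cross-hybridisation, stomach cells were at 10.15 and 9.82. The gastric adenomas split, with 11.79, 10.58 and 12.88 in samples 4, 5 and 7 and 2.91, 3.96, 3.88 and 2.76 in the other 4. Gastric adenocarcinomas were at 3.06, 2.97, 2.99 and 3.09, all under the filter. Perioral squamous carcinomas were at 6.08, 12.22 and 12.04, while perineal ones had a mean of 2.94 ± 0.23 and the periorbital tumour 2.91. Every other group mean was under 4.06, with lung cells at 3.69 ± 0.30 and livers treated with DDC from 2.83 to 6.14.

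Tested as probe sets, Chil4 was 6.99 ± 0.44 higher in stomach cells than in the other organs (adjusted p = 5.0e-15, 6.34% of probe sets called higher). It was lower in gastric adenocarcinoma than in stomach cells, at -6.96 ± 0.31 (adjusted p = 1.6e-05, 8.83% called lower), and than in gastric adenoma, at -3.94 ± 1.11 (adjusted p = 0.0038, 9.72% called lower). Gastric adenoma and stomach cells differed by -3.02 ± 2.79, which was not called (adjusted p = 0.48). Squamous carcinomas were 3.65 ± 0.79 above internal carcinomas (adjusted p = 0.00015, 8.74% called higher), and perineal tumours lay below perioral ones, at -7.17 ± 1.35 (adjusted p = 0.00026, 1.44% called lower). None of these 5 calls was lost when any sample was left out. The remaining calls of this probe set were lower values in kidney, untreated liver, prostate, salivary gland and small intestine cells against a mean that includes the stomach, from -1.44 to -1.02, with each of those groups itself under the filter. Of all probe sets 13.2%, 17.3%, 6.98%, 8.25% and 11.8% were called lower in these 5 comparisons, and 2 of the 5 calls were lost with a sample left out (prostate cells without sample 2 or 3, small intestine cells without sample 1 or 3 or stomach sample 1). In the stomach, then, Chil4 was high in the sorted cells and Chil3 low, and in the 4 carcinomas Chil3 was high and Chil4 under the filter.

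The other probe set, marked _s_at, which stands for Chil4 in the gene tests because its mean is higher, followed both genes. It exceeded a level of 8, chosen after the values were seen, in 34 samples. In 27 of them Chil3 was above 8, in the other 7 the unmarked Chil4 probe set was, and in none were both or neither. In 4 more samples Chil3 was above 8 and the shared probe set was not: DDC liver sample 9 (Chil3 8.42, shared 7.47), large intestinal adenoma 4 (8.87 and 7.94), prostatic adenocarcinoma 1 (8.39 and 7.44) and the HCC/CC intestine metastasis (8.61 and 7.56). The 7 samples with the unmarked probe set above 8 were the 2 stomach samples, gastric adenomas 4, 5 and 7 and perioral tumours 2 and 3. Chil3 was just under 8 in some of them, at 7.80 in gastric adenomas 4 and 7 and 7.48 in perioral tumour 2. It was at 6.81 in perioral tumour 3, 3.99 in gastric adenoma 5 and 3.41 and 3.51 in stomach cells. The absence of samples with both above the level thus depends on the level chosen. As descriptions, lung cells differed from the other organs by 7.46 with the shared probe set and by -0.30 with the unmarked one, and livers treated with DDC from untreated ones by 2.27 and by 0.56. The shared probe set was called higher in neonatal liver cells by 1.94 ± 0.63 (adjusted p = 0.013), a call lost without neonatal sample 1 (1.64) or 3 (1.63), and in HCC/CC by 2.96 ± 1.12 (adjusted p = 0.039), lost without any of 9 of 19 samples. It was 6.01 ± 0.64 higher in stomach cells (adjusted p = 4.0e-09, 7.99% of genes called higher) and lower in perineal than in perioral tumours, at -6.81 ± 1.73 (adjusted p = 0.011, 1.79% called lower), lost without perioral tumour 2 (-6.11) or 3 (-6.10). It was lower in kidney (-1.49, lost without kidney sample 2, -1.27), untreated liver (-1.44) and small intestine cells (-1.96). The unmarked probe set was under the filter in neonatal liver cells and HCC/CC, and the calls there cannot be assigned to Chil4.

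**Figure D1:**
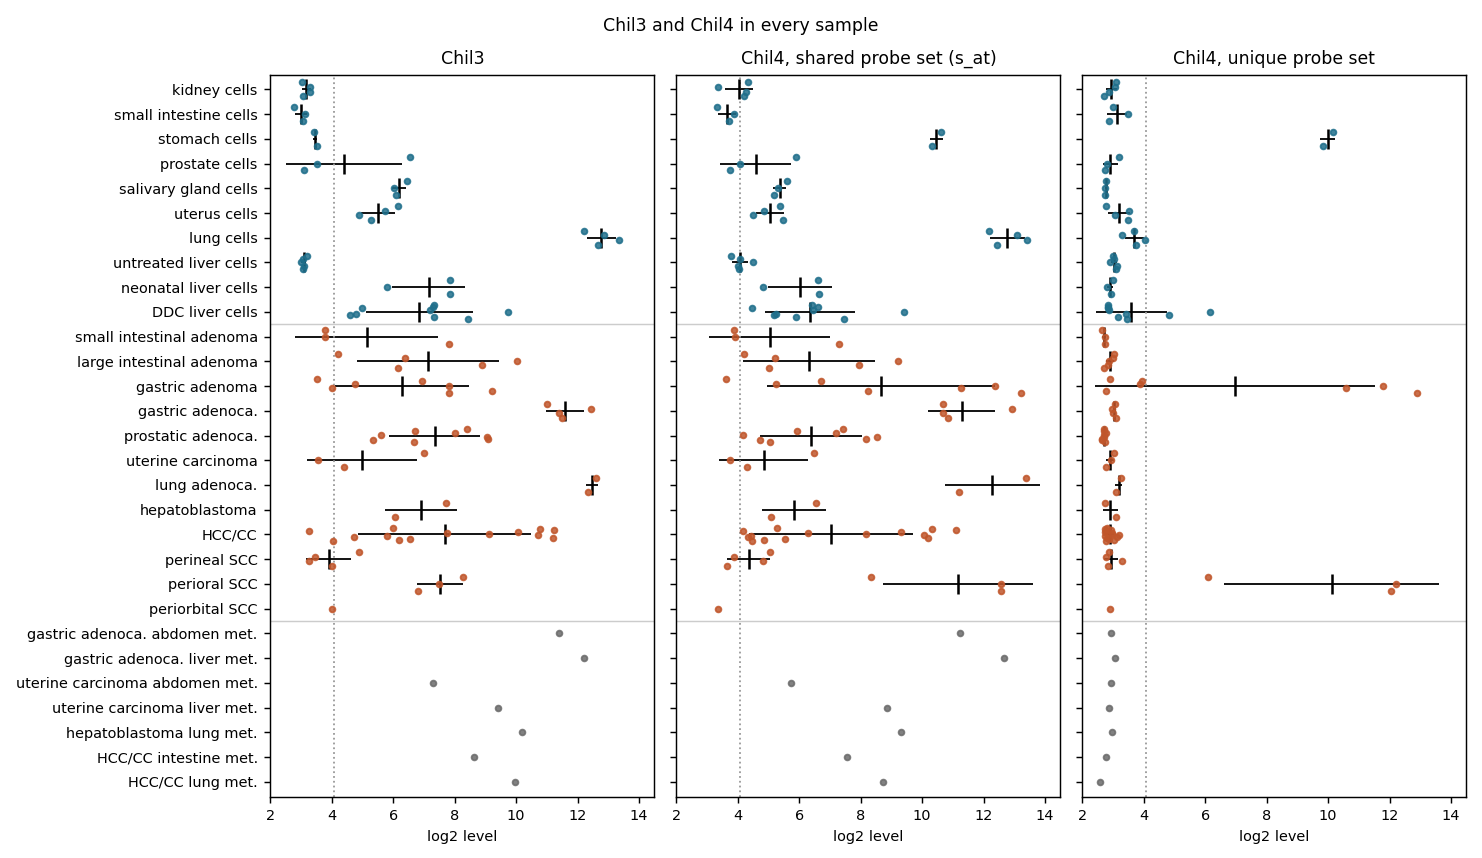
Log2 levels of Chil3, of the unmarked Chil4 probe set and of the Chil4 probe set that can cross-hybridise, with 1 point per sample in each sorted group, primary tumour group and metastasis, and bars at the mean ± SD. Chil3 is highest in lung cells, lung adenocarcinomas and gastric adenocarcinomas, the unmarked Chil4 probe set is high in stomach cells, 3 gastric adenomas and perioral tumours, and the shared probe set is high in most samples where either is. The dotted line is the filter of 4.06.

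Chil1 (gene 12654, GRCm38.p6 chr1:134182156-134190031) was highest in the lung adenocarcinomas, at 12.08 and 12.49, where lung cells had 5.49, 4.54, 3.01 and 6.09. The difference of the means, 7.50, is given without a test. Squamous carcinomas came next, with 10.71, 9.01 and 4.38 in the perioral tumours, 8.84, 6.6, 7.36 and 7.36 in the perineal ones and 7.73 in the periorbital one. Uterine carcinomas were at 9.73, 7.75 and 5.08 and uterus cells at 8.06, 3.53, 5.41 and 4.49. The uterine groups overlapped, and their difference of 2.14 ± 1.28 was not called (adjusted p = 0.23). HCC/CC ran from 3.21 over 4.30 to 6.33, so that many of these tumours were near the filter. Among sorted cells the groups overlapped from one neighbour to the next, and among tumours the mean ± SD range of lung adenocarcinoma alone stood apart.

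HCC/CC had a mean Chil1 level of 4.35, above those of gastric (3.37) and prostatic adenocarcinoma (3.65) and below that of uterine carcinoma (7.52), and the difference from the mean of these 3 groups, -0.49 ± 0.50, was not called (adjusted p = 0.38). Squamous carcinomas were 3.07 ± 0.56 above the internal carcinomas (adjusted p = 1.1e-05, 10.1% of genes called higher), and the call was kept without any 1 sample, with differences from 2.4 to 3.98. Uterus cells were 2.01 ± 0.45 above the other organs (adjusted p = 0.00049), which fell to 1.11 without uterus sample 1. The other calls were lost without single samples. HCC/CC against untreated liver cells gave 1.05 ± 0.35 (adjusted p = 0.021), lost without HCC/CC sample 3 (0.90) or 5 (0.99) or untreated liver sample 1 (0.98) or 5 (0.98). Gastric adenocarcinoma against adenoma gave -1.97 ± 0.79 (adjusted p = 0.039, 11.4% called lower), lost without any of the 4 carcinomas (-2.12 to -1.85), without adenoma 2 (-1.27) or without adenoma 3 (-1.96).

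Retnla (gene 57262, GRCm38.p6 chr16:48842609-48844461), the secreted resistin-like protein whose promoter carries the STAT6 motif, was high in 4 sorted groups. Prostate cells were at 11.64, 12.27 and 12.55, salivary gland cells at 11.88, 12.06 and 12.41, lung cells at 11.90, 12.68, 12.04 and 11.83, and uterus cells at 9.37, 10.32, 10.22 and 10.75. The first 3 of these overlapped within their spread and uterus cells stood apart from them. Untreated liver cells varied most, with 7.06, 10.73, 4.09, 5.02 and 6.0. Kidney cells were at 5.24, 6.03, 5.43 and 6.53, stomach cells at 7.25 and 5.16, neonatal liver cells at 4.79, 3.67 and 3.62 and small intestine cells at 4.61, 3.45 and 3.56. Livers treated with DDC ran from 3.14 over 3.61 to 5.64, so that most lay under the filter.

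Against the mean of the other organs without lung, Retnla was higher in prostate cells by 4.70 ± 0.68 (adjusted p = 1.2e-06, 11.1% of genes called higher), in salivary gland cells by 4.66 ± 0.68 (adjusted p = 1.3e-06) and in uterus cells by 2.37 ± 0.60 (adjusted p = 0.0016). It was lower in small intestine cells, at -4.97 ± 0.68 (adjusted p = 2.6e-07, 14.7% called lower), and in kidney cells, at -2.71 ± 0.60 (adjusted p = 0.00029, 16.9%). Untreated liver cells were lower, at -1.81 ± 0.55 (adjusted p = 0.0056, 20.2%), lost without untreated liver sample 3 (-1.19) and -2.85 without sample 2. Stomach cells were also lower, at -2.24 ± 0.81 (adjusted p = 0.040, 9.4%), lost without stomach sample 2 (-1.20) or small intestine sample 1 (-2.18). Macrophage markers moved in the direction of Retnla in the organs listed next, and their count in untreated liver cells is not given here. Of 12 tested, 11 were called higher in salivary gland cells (11.3% of all genes), 11 in uterus cells (16.7%) and 7 in prostate cells (11.1%). Of the same 12, 11 were called lower in kidney cells, 10 in stomach cells and 9 in small intestine cells. Their part in the Retnla differences was not tested.

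Most tumours had little Retnla. Perioral squamous carcinomas were at 6.01, 5.26 and 5.68, perineal ones at 4.13, 4.97, 3.25 and 5.04, and the periorbital one at 4.86. Prostatic adenocarcinomas ran from 3.48 over 3.91 to 10.26, and sample 8 alone was above 10. They were lower than prostate cells, at -7.12 ± 1.24 (adjusted p = 0.0013, 8.69% of genes called lower). Uterine carcinomas, at 4.11, 3.79 and 3.43, were lower than uterus cells without overlap, at -6.39 ± 0.33 (adjusted p = 3.5e-05, 10.1% called lower). HCC/CC ran from 3.43 over 3.96 to 7.06 and was lower than untreated liver cells, at -2.33 ± 0.71 (adjusted p = 0.013, 6.23% called lower), a call lost without untreated liver sample 2 (-1.29), which also carries the highest value of that group. Neonatal liver cells were lower than untreated ones, at -2.55 ± 0.80 (adjusted p = 0.0097, 8.63%), and at -1.52 without untreated liver sample 2, still called, but not called when these 2 groups were fitted alone (adjusted p = 0.17). Gastric adenocarcinomas, at 4.10, 4.01, 5.50 and 4.16, differed from stomach cells by -1.77, which was not called (adjusted p = 0.073). Lung adenocarcinomas were at 9.93 and 6.92, both under every lung cell sample. They were the highest tumour group by mean. HCC/CC differed from the other internal carcinomas by -0.17 ± 0.45, which was not called (adjusted p = 0.75).

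Macrophage markers were lower in the uterine and prostatic tumours. In uterine carcinoma 12 of 12 were called lower than in uterus cells, with a median of -2.82 against 0.16 over all genes, and their mean level went from 11.29 (11.08 to 11.53) to 8.55 (8.07 to 9.26). In prostatic adenocarcinoma 6 of 12 were called lower with a median of -1.20, from a mean level of 9.33 (8.48 to 10.48) to 8.20 (7.27 to 8.89). The markers were still above the filter in tumours where Retnla was near or under it. Their part in these differences was not tested either.

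**Figure D2:**
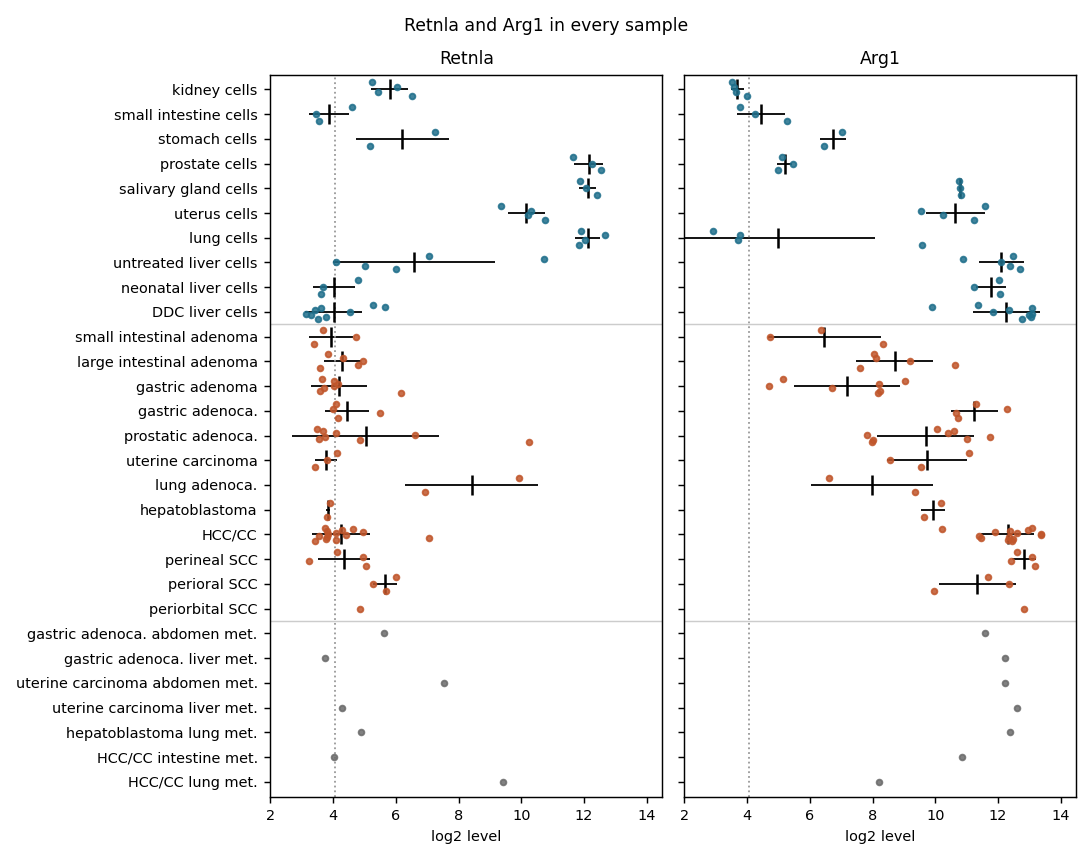
Log2 levels of Retnla and of Arg1, 1 point per sample, in every sorted group, primary tumour group and metastasis, with bars at the mean ± SD. Retnla is high in prostate, salivary gland, lung and uterus cells and near the dotted filter line of 4.06 in most tumours, while Arg1 is high in liver groups, salivary gland and uterus cells and in several tumour groups.

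Arg1 (gene 11846, GRCm38.p6 chr10:24915207-24927470), which splits arginine into urea and ornithine, was high in all liver groups. Untreated liver cells were at 12.48, 10.88, 12.11, 12.37 and 12.69, neonatal liver cells at 12.02, 11.24 and 12.07, livers treated with DDC from 9.91 over 12.76 to 13.10, and HCC/CC from 10.22 over 12.41 to 13.36. These groups overlapped. HCC/CC differed from untreated liver cells by 0.20 ± 0.40 (adjusted p = 0.70) and neonatal from untreated liver cells by -0.33 ± 0.84, neither called. The hepatoblastomas, at 10.19 and 9.65, were under every HCC/CC sample, with a difference of -2.39 ± 0.91 that was not called (adjusted p = 0.085). Hepatocyte markers were at mean levels of 11.88 to 12.61 across the liver groups, with 11 of 11 above the filter in each.

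Outside the liver, Arg1 was high in salivary gland cells, at 10.77, 10.79 and 10.82, and in uterus cells, at 11.57, 9.53, 10.25 and 11.22. Stomach cells were at 7.03 and 6.44, prostate cells at 5.11, 5.47 and 5.0, small intestine cells at 3.77, 4.26 and 5.27, and kidney cells at 3.52, 3.59, 3.64 and 3.99. Lung cells were at 2.92, 3.78, 3.72 and 9.59, and sample 4 alone lay above the filter. Against the other organs, untreated liver cells were higher by 5.19 ± 0.58 (adjusted p = 2.4e-09, 10.6% of genes called higher), salivary gland cells by 3.66 ± 0.71 (adjusted p = 0.00011) and uterus cells by 3.49 ± 0.63 (adjusted p = 2.8e-05). Arg1 was lower in kidney cells, at -4.63 ± 0.63 (adjusted p = 1.4e-07), small intestine cells, at -3.76 ± 0.71 (adjusted p = 5.4e-05), and prostate cells, at -2.87 ± 0.71 (adjusted p = 0.0019, 8.73% called lower). Uterus cells had 5 of 6 members called higher, all but Chil4, beside 16.7% of all genes. Of 8 fibroblast markers 8 were called higher there as well, with a median of 3.79, and their part was not tested.

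Arg1 was higher in 2 tumour types than in the sorted cells of their organ. Gastric adenocarcinomas, at 11.30, 12.29, 10.65 and 10.73, exceeded stomach cells by 4.51 ± 0.46 (adjusted p = 0.00050) and gastric adenomas, which ran from 4.70 over 8.18 to 9.04, by 4.07 ± 0.75 (adjusted p = 2.2e-05). No carcinoma overlapped with either group. Prostatic adenocarcinomas, from 7.81 over 10.22 to 11.75, exceeded prostate cells by 4.51 ± 0.81 (adjusted p = 0.0015) without overlap, while Retnla moved the other way in the same samples. Uterine carcinomas, at 11.09, 8.56 and 9.54, overlapped with uterus cells and differed by -0.92, not called. Among primary tumour groups of 2 or more samples, perineal squamous carcinomas had the highest mean, with 12.60, 13.10, 12.43 and 13.19. Perioral ones were at 11.68, 12.36 and 9.98 and the single periorbital one at 12.84. Squamous carcinomas exceeded internal ones by 1.34 ± 0.52 (adjusted p = 0.027), a call lost without perioral tumour 1 (1.25) or 2 (1.08) or uterine carcinoma 2 (1.19). Their keratinocyte markers had mean levels of 11.87 to 12.25. HCC/CC exceeded the other internal carcinomas by 2.09 ± 0.46 (adjusted p = 8.8e-05, 12.2% called higher). No Arg1 call other than that in squamous carcinomas was lost when any sample was left out.

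The other genes of arginine use and the urea cycle, 12 of 13 listed genes measured, were compared in the same groups. In untreated liver cells 7 of 11 tested were called higher than in the other organs and 4 lower (10.6% and 20.2% of all genes), with Cps1, the first urea cycle enzyme, at 7.4 ± 0.31, Otc, the second, at 6.83, and the arginine transporter Slc7a2 at 4.38, while the mitochondrial arginase Arg2 was lower, at -3.97. In HCC/CC none of 11 was called by limma against untreated liver cells, and 1 had an unadjusted p under 0.05. Of all genes 17.4% were called higher and 6.23% lower there. In gastric adenocarcinoma 2 of 7 were called higher than in stomach cells, a share not far from the 17.9% of all genes, with a median of -0.21: Slc7a2 by 4.13 ± 0.48 and the transporter Slc7a1 by 1.08, and against gastric adenoma Slc7a2 alone of 9, by 4.23 ± 0.61 (13.7% of all genes called higher). Prostatic adenocarcinoma had Slc7a2 higher by 2.72 ± 0.76 (12.4% of all genes called higher). Arg2, the polyamine enzyme Odc1 and the arginine-making enzyme Ass1 were lower there, at -2.41, -2.15 and -1.22 (8.69% called lower). Small intestine cells, where Arg1 was low, had Arg2 higher by 6.39 ± 0.50.

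Ear3 (gene 53876, with no position in the RefSeq table used here) was read by an _s_at probe set, which stands for the gene, and an _x_at probe set, both able to bind related ribonuclease transcripts, so the values below cannot be assigned to Ear3 alone. Lung cells were at 11.87, 12.63, 12.93 and 12.37 on the first, and lung adenocarcinomas at 11.20 and 9.68, both under every lung cell sample. Livers treated with DDC ran from 7.28 over 9.16 to 10.92 and untreated liver cells were at 5.80, 5.82, 2.48, 2.50 and 4.80, without overlap. As descriptions, lung cells exceeded the other organs by 7.93 on the first probe set and 8.21 on the second, and livers treated with DDC exceeded untreated ones by 4.85 and 3.82. Over the 17 tested comparisons in which both probe sets passed the filter, their differences had the same sign in 14. Both were called in 7, the first alone in 2 and the second alone in 2.

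Ear3 was called higher in neonatal than in untreated liver cells by 3.51 ± 0.85 (adjusted p = 0.0012) with samples at 8.49, 6.47 and 8.39, and in HCC/CC by 2.71 ± 0.68 (adjusted p = 0.0036). Uterus cells, at 6.99, 6.46, 6.90 and 8.53, were 3.15 ± 0.64 above the other organs (adjusted p = 0.00014), and uterine carcinomas, at 4.47, 3.55 and 2.91, were lower than uterus cells, at -3.58 ± 0.54 (adjusted p = 0.0031). Gastric adenocarcinomas, at 6.50, 8.23, 7.62 and 6.29, were 4.22 ± 0.57 above stomach cells (adjusted p = 0.0017), whose values were 2.98 and 2.90, and 3.57 ± 0.68 above gastric adenomas (adjusted p = 3.5e-05). HCC/CC exceeded the other internal carcinomas by 2.15 ± 0.42 (adjusted p = 1.6e-05), and squamous carcinomas were lower than internal ones, at -1.62 ± 0.48 (adjusted p = 0.0040), and neither call was lost when any sample was left out. Kidney cells were called lower, at -1.93 (adjusted p = 0.012). The second probe set gave smaller differences in the same direction in all of these, and was called in all but kidney cells and squamous carcinomas (-0.87 ± 0.41, adjusted p = 0.071): 1.97 in neonatal liver (21.1% of probe sets called higher), 1.81 in HCC/CC against untreated liver cells (17.4%), 1.75 in HCC/CC against the other internal carcinomas (10.9%), 2.09 in uterus (13.9%), 1.89 and 1.56 in gastric adenocarcinoma against stomach cells and adenoma (15.7% and 12.7%) and -2.90 in uterine carcinoma (9.47% called lower). With it, calls were lost without any of 5 samples in neonatal liver, 3 in HCC/CC against untreated liver cells, 1 in uterus (sample 4, 1.5), and 3 and 2 in the gastric comparisons. It alone was called lower in prostatic adenocarcinoma, at -1.49 ± 0.46 (adjusted p = 0.025, 7.3% of probe sets called lower, -0.63 and not called without prostate sample 2), and in hepatoblastoma against HCC/CC, at -2.20 ± 0.72 (adjusted p = 0.040, 2.97%), lost without either hepatoblastoma or HCC/CC sample 8.

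Eosinophil markers were low throughout. Of 8 at most 2 passed the filter in any sorted or primary tumour group, their mean level was highest in lung cells at 4.04, and the highest value of Epx, the eosinophil peroxidase, in any sample was 3.44. Alveolar macrophage markers had a mean level of 8.83 in lung cells (7.78 to 9.44) and 7.89 in lung adenocarcinoma, above the 5.21 to 7.30 of the other sorted and primary tumour groups. Of the other ribonucleases of the family 12 names were listed, and 3 different genes were measured. The names Ear5 and Ear11 stand for Rnase2b and Rnase2a, which were also listed. Rnase2a was 3.50 ± 0.58 higher in prostate cells than in other organs and at -3.87 ± 0.73 in prostatic adenocarcinoma against prostate cells. Rnase2b was 6.64 ± 0.29 higher in squamous than in internal carcinomas, where the _s_at probe set of Ear3 was called lower.

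**Figure D3:**
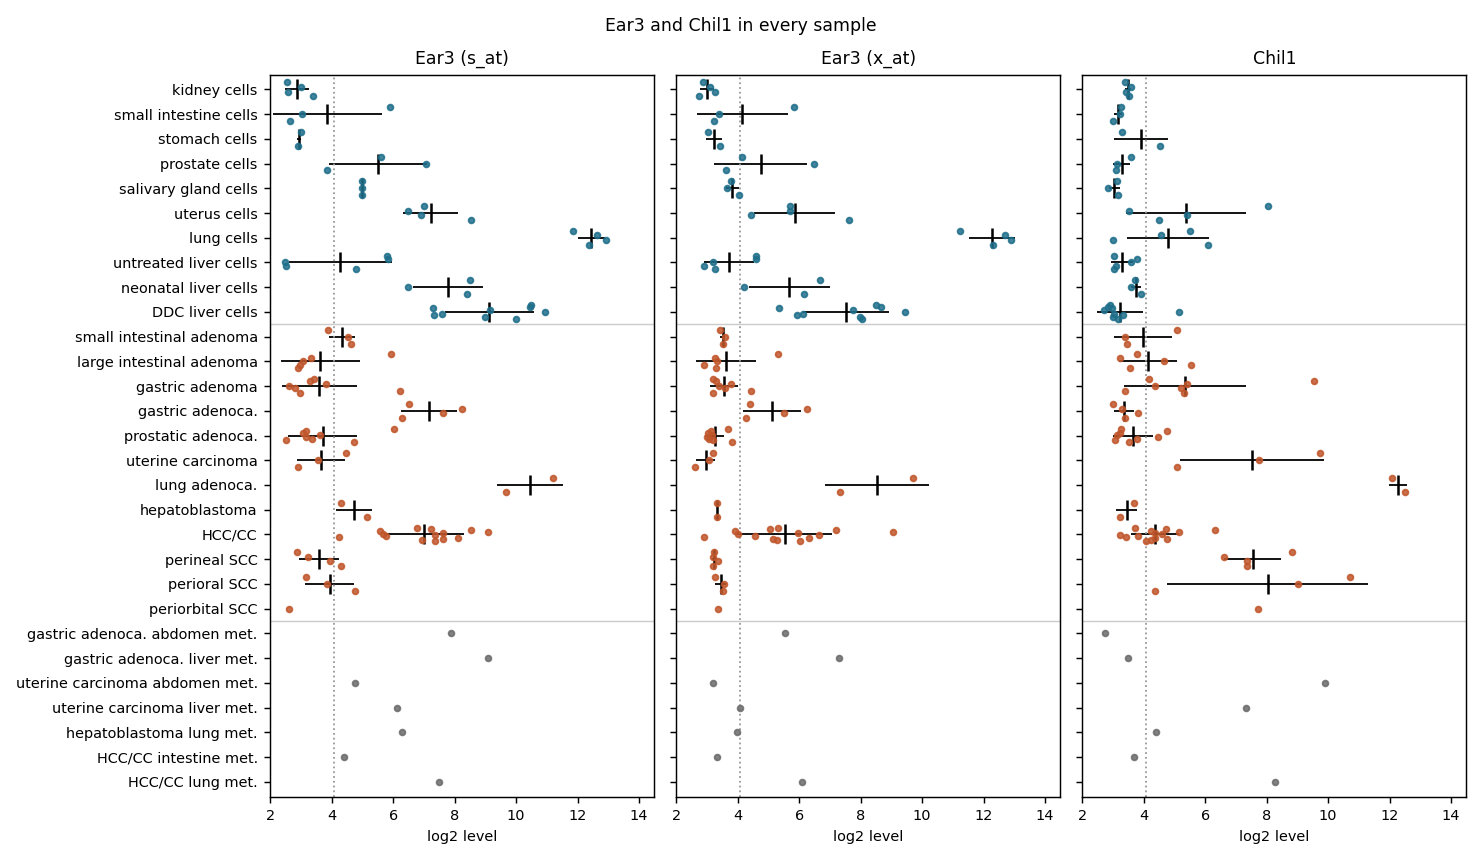
Log2 levels of the 2 Ear3 probe sets and of Chil1, 1 point per sample, in every sorted group, primary tumour group and metastasis, with bars at the mean ± SD and the filter of 4.06 as a dotted line. Both Ear3 probe sets are highest in lung cells, and Chil1 is highest in the lung adenocarcinomas, at 12.08 and 12.49.

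**Figure D4:**
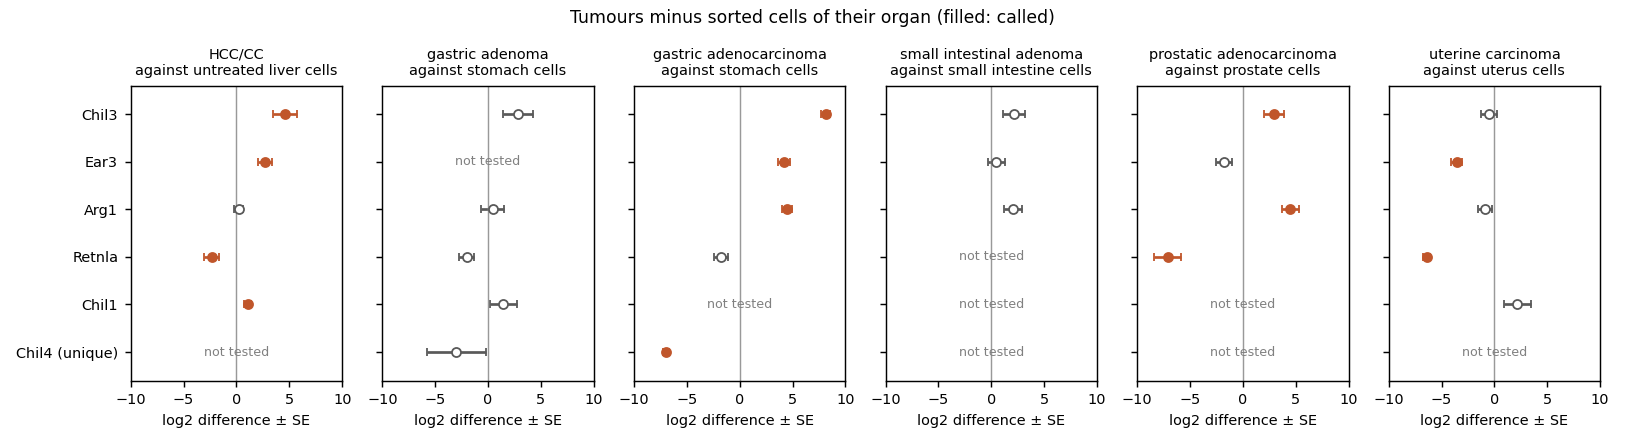
Log2 differences ± SE of each member between a tumour group and the sorted cells of its organ, with filled points where a difference was called and open points where it was not. In gastric adenocarcinoma Chil3, Arg1 and Ear3 lie above 0, and in prostatic adenocarcinoma and uterine carcinoma Retnla lies below 0, at -7.12 and -6.39.

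In 4 comparisons limma called no member by the probe set that stands for its gene. Gastric adenoma against stomach cells had 0 of 5 called (11.1% of all genes), with 1 member, Retnla, at an unadjusted p under 0.05. Small intestinal adenoma against small intestine cells had 0 of 4 called (22% of genes) and none with an unadjusted p under 0.05. There Chil3 was at 3.78, 3.79 and 7.82 in the adenomas and at 2.78, 3.14 and 3.08 in the sorted cells, a difference of 2.13 ± 1.03 (adjusted p = 0.15), and Arg1 differed by 2.03 (adjusted p = 0.11). Large against small intestinal adenoma had 0 of 6 called (12.9% of genes) and 1, Arg1, at an unadjusted p under 0.05, with a difference of 2.24 ± 0.88 (adjusted p = 0.061). The large intestinal adenomas spread widely for Chil3, at 4.21, 6.39, 10.04, 8.87 and 6.15. Hepatoblastoma against HCC/CC had 0 of 6 called (6.09% of genes) and 2, Arg1 and Ear3, at an unadjusted p under 0.05, while the _x_at probe set of Ear3 was called lower there, as given above.

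The other genes of alternative activation were 25 receptors, ligands and transcription factors known from macrophages exposed to interleukin-4 or interleukin-13. In uterus cells, by limma, 16 of 21 tested were called higher and none lower, with a median of 2.56 against 0.04 over all genes, of which 16.7% were called higher. The largest were Trem2, a lipid receptor, at 4.70 ± 0.59, the beta-glucan receptor Clec7a at 4.69, the mannose receptor Mrc1 at 4.52 and the interleukin-1 antagonist Il1rn at 4.33. Prostate cells had 10 higher and 2 lower of 21, and salivary gland cells 11 higher and 3 lower of 21, each with a median of 1.32 (11.1% and 11.3% of all genes called higher), and the lectin Clec10a led both, at 4.09 and 4.69. Kidney cells had 15 lower and 1 higher with a median of -1.97 (16.9% of all genes called lower), small intestine cells 11 lower and 2 higher (14.7%), and stomach cells 10 lower and 1 higher (9.4%).

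In uterine carcinoma 15 of 21 of these genes were called lower and none higher than in uterus cells, with a median of -2.95 (10.1% of all genes called lower). The folate receptor Folr2 was at -5.91 ± 0.43, Clec10a at -5.42, Mrc1 at -5.24 and the cytokine Il10 at -5.12. Prostatic adenocarcinoma had 10 lower and 3 higher of 20 (8.69% and 12.4% of all genes) and a median of -1.06, with Clec10a at -4.59 and the chemokine Ccl24 at -4.36. In gastric adenocarcinoma 11 of 18 were called higher and 1 lower than in stomach cells, with a median of 1.71 (17.9% of all genes called higher) and with Mrc1 at 5.74 ± 0.38, the transglutaminase Tgm2 at 4.26, Clec7a at 4.08 and the scavenger receptor Msr1 at 3.51. Against gastric adenoma 10 of 18 were higher and 2 lower (13.7% and 11.4%). HCC/CC against untreated liver cells had 5 higher and 5 lower of 17 (17.4% and 6.23%) with a median of 0.14 (all genes 0.30), with Cd163, a haemoglobin receptor, at -3.39 and Il1rn at 3.11. In gastric adenocarcinoma Retnla itself was not called.

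**Figure D5:**
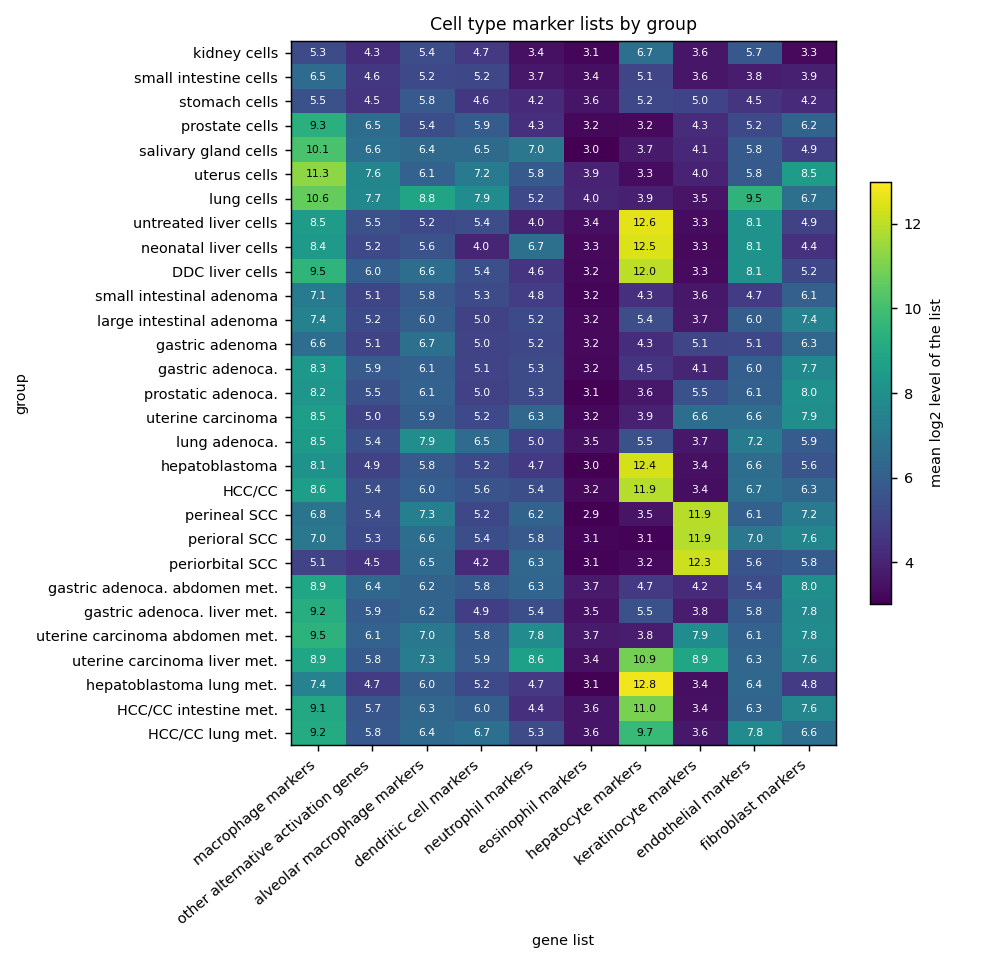
Mean log2 level of each listed marker set (columns) in each group (rows), as a colour scale. Macrophage markers are highest in uterus and lung cells, hepatocyte markers in the liver groups and keratinocyte markers in the squamous carcinomas.

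Relatives of the members by family differed from them. Of 7 listed chitinases and other glycosyl hydrolase family genes 4 were measured. Chia1, the acidic chitinase of mouse stomach and salivary gland, was 9.31 ± 0.41 higher in salivary gland cells than in other organs and 4.71 ± 0.49 higher in stomach cells. In gastric adenocarcinoma it was at -6.63 ± 0.51 against stomach cells and at -4.01 ± 0.93 against gastric adenoma, the direction of Chil4 and opposite to Chil3. Ovgp1, the oviduct glycoprotein, was 3.62 higher in uterus cells. Of the resistin family, 2 of 3 genes were measured besides Retnla, and Retnlb, the goblet cell form, was 3.58 ± 0.52 higher in small intestine cells, where Retnla was lowest, and 7.21 ± 0.69 higher in large than in small intestinal adenoma, where Retnla was not called.

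Likeness to other genes was measured as Pearson's r over the 29 group means, among 9234 genes whose means had an SD above 0.5. It is a description of groups that share arrays and normalisation. The means include those of lung cells, DDC livers and lung adenocarcinomas, so r between members draws on the values that chose them. The shared Chil4 probe set also follows Chil3, as given above. Chil3 was most like the shared Chil4 probe set at 0.834, Csgalnact2 at 0.810 and Olr1 at 0.80, and reached 0.769 with Ear3. The unmarked Chil4 probe set had -0.147 with Chil3 and was most like Tnn at 0.763, Krt71 at 0.749 and Calhm4 at 0.739. Retnla was most like the lectins Mgl2 at 0.878, Cd209g at 0.876 and Cd209f at 0.859. Chil1 was most like Ppp1r14c at 0.863, Slc34a2 at 0.810 and Dmkn at 0.807, and Ear3 most like Sla at 0.853, Adamts10 at 0.842 and the receptor Cd200r1 at 0.801. Arg1 was most like Acvr1 at 0.777, Nab1 at 0.737 and Rbfox2 at 0.729, and had -0.316 with Retnla.

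The 7 metastases are single samples and carry no test. Both gastric adenocarcinoma metastases resembled their primaries, with Chil3 at 11.41 in the abdomen and 12.19 in the liver, Arg1 at 11.58 and 12.21, and the unmarked Chil4 probe set at 2.95 and 3.05. Retnla was at 9.42 in the HCC/CC lung metastasis and at 4.04 in the intestinal one. Arg1 was lower in that lung metastasis, at 8.21, than in any HCC/CC primary. The uterine carcinoma metastases had Chil1 at 9.91 in the abdomen and 7.34 in the liver.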

How the data were processed

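The deposited table holds log2 probe set values of Affymetrix mouse arrays with perfect-match probes, which the authors made with Partek 6.6, per the submitters' processing notes. How the authors corrected background, normalised and summarised is not given in the sources used here. Samples were grouped by organ, tumour and treatment from the labels. Differences were fitted with limma 3.58.1 (lmFit, contrasts.fit, eBayes with trend) in R 4.3.3 over all genes, with 1 probe set per gene, the one with the highest mean. Comparisons among sorted organs used all 40 sorted samples, comparisons among tumours 55 primaries without the single periorbital tumour, and the others the 2 compared groups alone. Lung adenocarcinomas, whose values chose the members, were left out of the 2 comparisons with internal carcinomas, a change of the planned fit made after the data were seen. The filter was the 40th percentile, and p-values were adjusted by Benjamini and Hochberg over all genes tested. Of 45141 probe sets, 28898 carry 1 gene symbol, 551 several and 15588 none used here. The number of arrays limits the precision.

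The members and the gene lists were chosen with earlier results of these data known. Beside the members, list genes are named where called, up to 4 with the largest difference per list, or where their level stands beside a member, and for likeness the 3 genes with the highest r. The procedure was tested on simulated data. Alternatives were 2 other scalings, 2 other filters, 3 other treatments of probe sets, other samples in the fit and each sample left out in turn.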

Additional observations from a re-analysis of the deposited data

Results flagged for a closer look

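In groups of 4 to 10 samples, 12 of 80 checks found a single sample that stood apart from its group by Dixon's criterion, at about 1 in 20 per check. The checks are not independent, since probe sets share samples, so their count cannot be set against chance. They include lung cells and DDC livers, whose values chose the members, and flags there are descriptions only. Chil1 was at 9.55 in gastric adenoma 2 and at 5.14 in DDC liver sample 5. Retnla was at 10.26 in prostatic adenocarcinoma 8, at 5.50 in gastric adenocarcinoma 3 and at 6.17 in gastric adenoma 7. Arg1 was at 9.59 in lung sample 4. The shared Chil4 probe set was at 12.92 in gastric adenocarcinoma 2 and, as the lowest of its group, at 3.37 in kidney sample 2. Ear3 was at 6.23 in gastric adenoma 6, at 5.93 on the _s_at and 5.31 on the _x_at probe set in large intestinal adenoma 1, and at 3.34 on the _x_at probe set in perineal tumour 3, which is under the filter.

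Ear3 went in opposite directions in 2 carcinomas against the sorted cells of their organ. Every gastric adenocarcinoma lay above both stomach samples, with differences of 4.22 on the _s_at and 1.89 on the _x_at probe set, and every uterine carcinoma lay below every uterus sample, with differences of -3.58 and -2.90. The difference between these effects was not tested.

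Single metastases, which enter no comparison, exceeded the highest primary tumour of their kind by at least 1 in 13 values. The uterine carcinoma liver metastasis had Chil3 at 9.42 (highest primary 7.0), Arg1 at 12.62 (11.09), the shared Chil4 probe set at 8.84 (6.48) and Ear3 at 6.12 (4.47), and the abdominal one had Retnla at 7.55 (4.11) and Arg1 at 12.22. The hepatoblastoma lung metastasis had Chil3 at 10.20 (7.72), Arg1 at 12.38 (10.19), the shared Chil4 probe set at 9.33 (6.56) and Ear3 at 6.29 (5.14), against only 2 primaries. The HCC/CC lung metastasis had Chil1 at 8.27 (6.33) and Retnla at 9.42 (7.06). The gastric adenocarcinoma liver metastasis had the _x_at probe set of Ear3 at 7.29 (6.26).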

How the results depend on the processing

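Values were recomputed for called members, described differences and counts of called genes. Of 640 under another setting 609 were counted as unchanged, as were 1605 of 1673 with a sample left out. These totals include the described differences of the groups whose values chose the members. For internal carcinomas they take the calls of the planned fit, which includes the lung adenocarcinomas. In HCC/CC against internal carcinomas they thus hold Chil1 and Retnla, not called above, and leave out Ear3, which was. For called members, unchanged means the same direction and call. Described differences and counts carry no call and were judged by the size of their change. A described difference could thus change sign, as Chil1 in DDC liver did (-0.31 to 0.051 with a sample left out). Chil1, Chil3, Retnla and Arg1 have a single probe set, so their differences could not change with the treatment of probe sets. No called member reversed with a sample left out. Of the members not called, 11 passed the threshold under another setting and 18 with a sample left out. No paired analysis was possible because the labels carry no replicate numbers. Leaving out samples of groups larger than 5, and lung adenocarcinoma from the internal carcinomas, was added after the data were seen.

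Lung adenocarcinomas, whose values chose the members, changed the comparisons with internal carcinomas. With them, HCC/CC differed by -2.35 for Chil1, -1.17 for Retnla, 2.65 for Arg1 and 0.75 for Ear3, and squamous carcinomas by 1.55 for Chil1, -3.10 for Chil3, 1.89 for Arg1 and -2.63 for Ear3. Without them, Chil1 (-0.49) and Retnla (-0.17) were no longer called in HCC/CC, Ear3 (2.15) was, and in squamous carcinomas the shared Chil4 probe set (0.37) and Retnla (0.62), not called, reversed. The other alternatives given here for these comparisons include the lung adenocarcinomas.

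The treatment of probe sets mattered most, for Chil4. The values of squamous carcinomas in this paragraph are with the lung adenocarcinomas among the internal carcinomas. With its marked probe set left out, the difference reversed in lung cells (-0.30), salivary gland cells (-1.44), squamous carcinomas (3.59) and gastric adenocarcinoma against stomach cells (-6.96) and adenoma (-3.94), and in DDC liver it was 0.56. With the mean of its probe sets it reversed in gastric adenocarcinoma against stomach cells (-3.07) and adenoma (-0.66), squamous carcinomas (1.49) and salivary gland cells (-0.69), was 3.58 in lung cells, and its calls in neonatal liver (0.91) and HCC/CC (1.41) were lost. Ear3 reversed in small intestinal adenoma (-0.082, not called). The Chil3 call in untreated liver (-1.21) was lost with every treatment of probe sets and without a filter, and Chil1 in gastric adenocarcinoma against adenoma (-1.97) was lost without a filter.

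With other samples in the fit, the calls of Chil1 in HCC/CC against untreated liver (1.05) and in gastric adenocarcinoma against adenoma (-1.97), and of Retnla in stomach (-2.24), neonatal liver (-2.55) and HCC/CC against internal carcinomas (-1.17) were lost, and hepatoblastoma against HCC/CC had 186 genes called in place of 658. Quantile normalisation ended the Retnla call in stomach cells (-2.05). It moved the median of all genes by over 0.1 in 8 of 20 comparisons (-0.29 to 0.10) and median centring in none. The share of higher among called genes went under quantile normalisation from 71.9% to 58.5% in neonatal liver, from 73.6% to 59.2% in HCC/CC against untreated liver, from 58.8% to 45.4% in prostatic adenocarcinoma, from 72.5% to 49.8% in gastric adenoma, from 63.0% to 45.7% in gastric adenocarcinoma against stomach cells and from 61.7% to 50.1% in small intestinal adenoma. The cause was not tested.

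Counts of called genes rose by over 1.5 times when every probe set was tested, which tests more features: to 5620 in neonatal liver, 4505 in HCC/CC against untreated liver, 3560 in prostatic adenocarcinoma, 1942 in gastric adenoma, 4790 and 4176 in gastric adenocarcinoma against stomach cells and adenoma, 3859 in small intestinal adenoma, 3170 in uterine carcinoma, 1107 in hepatoblastoma, 544 in perineal against perioral tumours and 2184 in large against small intestinal adenoma. The last fell from 1405 to 934 with the 60th percentile as filter.

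With each sample left out, the counts ran from 1412 to 2386 in stomach cells, 797 to 1399 in gastric adenoma, 1957 to 3013 in gastric adenocarcinoma against stomach cells, 746 to 1434 in large against small intestinal adenoma and 580 to 1031 in hepatoblastoma. Chil1 ran from 0.90 to 1.18 in HCC/CC, from -2.30 to -1.27 in gastric adenocarcinoma against adenoma and from 6.91 to 7.93 in lung adenocarcinoma. In squamous carcinomas Chil1 ran from 0.88 to 2.47 with the lung adenocarcinomas among the internal carcinomas. Chil3 ran from -1.31 to -1.02 in untreated liver, 1.43 to 1.85 in uterus, 2.32 to 4.05 in prostatic adenocarcinoma and -0.49 to -0.11 in lung adenocarcinoma. Chil4 ran from 1.63 to 2.55 in neonatal liver, -1.58 to -1.27 in kidney, 2.64 to 3.18 in HCC/CC and -8.22 to -6.10 in perineal against perioral tumours. Retnla ran from -2.85 to -1.19 in untreated liver, -3.29 to -1.20 in stomach, -2.95 to -1.29 in HCC/CC against untreated liver and -3.19 to -1.53 in DDC liver. In HCC/CC against internal carcinomas that include the lung adenocarcinomas, Retnla ran from -1.54 to -0.79.

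Some members were not called and reversed with some sample left out. Ear3 did so in untreated liver (-0.67 to 0.17) and small intestinal adenoma (-0.13 to 1.5). Chil3 did so in prostate cells (-0.76 to 0.97), uterine carcinoma (-1.54 to 0.17) and hepatoblastoma (-1.61 to 0.048). The shared Chil4 probe set did so in salivary gland cells (-0.064 to 0.16) and uterine carcinoma (-1.02 to 0.35). Chil1 did so in stomach cells (-0.32 to 0.93), large intestinal adenoma (-0.13 to 0.71) and perineal against perioral tumours (-2.32 to 0.85). Arg1 did so in HCC/CC against untreated liver (-0.10 to 0.37), and Retnla in gastric adenocarcinoma against adenoma (-0.10 to 0.58). With the lung adenocarcinomas among the internal carcinomas, squamous carcinomas reversed for the shared Chil4 probe set (-0.97 to 0.091) and Retnla (-0.49 to 0.11). Without them neither reversed (0.012 to 1.07 and 0.51 to 0.81).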
